A study of Mus musculus with 6 samples.

Results

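Resident macrophages of the heart are tissue macrophages that are largely seeded before birth, maintain themselves by division, and take up dying cells, glycoproteins and debris around the cardiomyocytes. They are commonly recognised by a shared set of transcripts, which includes endocytic receptors (*Mrc1*, *Cd163*, *Lyve1*), a vitamin receptor (*Folr2*), a transglutaminase (*F13a1*), a reductase (*Cbr2*) and a chemokine (*Pf4*). Monocyte-derived macrophages, which enter the heart from the blood, carry less of these transcripts and more of *Ccr2*. These 7 genes were examined here by name, and they were found among 56923 genes listed in the count table. All 7 passed the filter on low counts, which left 17212 genes for the comparison.

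The samples were left ventricles (LVs) of 3 WT mice and 3 *Lztr1* R409C/+ mice at 12 weeks of age, 1 library per mouse, to ask how the mutation affects gene expression in the heart. The sample labels call the groups wild-type and mutant and the tissue heart, and the allele and the LV are given by the study. *Lztr1* R409C/+ mice carry 1 knock-in copy of a missense allele made by CRISPR/Cas9 in every cell, on a C57BL/6J background, and the study used male mice for its phenotypes. Hearts were perfused with phosphate-buffered saline before the LVs were taken. The labels give no separate lines, litters or batches, so the p-values measure the spread between these mice.

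Total counts ranged from 66130887 to 72641124 per mouse. The share of mitochondrially encoded genes was 13.8% in WT replicate 3 and 45.4% in *Lztr1* R409C/+ replicate 1, against 29.7% to 37.3% in the other 4 mice. Levels are given as CPM, counts scaled to a common library size, after trimmed mean of M values (TMM) scaling, whose factors ran from 0.800 to 1.39, the highest in WT replicate 3. A floor of 3 counts was 0.0317 to 0.0541 CPM, counting error alone considered. The 7 genes had between 320 and 4664 counts in each mouse. *Lztr1* itself had 23.5 ± 1.11 CPM (SD, n = 3) in WT and 25.7 ± 2.03 CPM (SD, n = 3) in mutant LVs, and since a missense allele need not change the amount of RNA, this does not check the genotype. Of 5 atrial genes, *Sln* and *Bmp10* had at most 4 counts in any library, *Myl7* had 0 in every WT mouse and up to 19 in a mutant mouse, *Myl4* was at most 0.570 CPM, and *Nppa*, which stressed ventricles also express, had 54.5 ± 19.6 CPM in WT and 78.6 ± 26.9 CPM in mutant LVs (SD, n = 3 in each group).

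Promoter sequences are shown because the 7 genes were each higher on average in mutant LVs. RefSeq promoters, listed on GRCm38.p6 and matched exactly to GRCm39, were found for 6 of the 7 genes, at 8 starts, and *Lyve1* had none in the table. The 250 bases before each start were searched on both strands for GAGGAA, the core bound by the macrophage factor PU.1, TGCTGA, a half-site of MAF factors, and TGANTCA, the AP-1 site. None of these motifs is contained in another. For 3 genes with a match outside the GENCODE gene model, the part of the window before that model is written along the gene on GRCm39, with each match on either strand in capitals.
*Mrc1*, chr2:14233975-14234150, plus strand: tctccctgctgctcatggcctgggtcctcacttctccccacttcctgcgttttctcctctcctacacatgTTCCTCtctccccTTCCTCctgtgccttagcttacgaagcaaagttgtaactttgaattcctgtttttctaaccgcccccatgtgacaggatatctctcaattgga
*F13a1*, chr13:37234278-37234470, minus strand: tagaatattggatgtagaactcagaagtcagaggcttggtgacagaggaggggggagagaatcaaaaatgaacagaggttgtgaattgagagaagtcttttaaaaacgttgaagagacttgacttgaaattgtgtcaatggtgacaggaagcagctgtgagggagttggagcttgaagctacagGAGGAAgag
*Folr2*, chr7:101506402-101506647, minus strand: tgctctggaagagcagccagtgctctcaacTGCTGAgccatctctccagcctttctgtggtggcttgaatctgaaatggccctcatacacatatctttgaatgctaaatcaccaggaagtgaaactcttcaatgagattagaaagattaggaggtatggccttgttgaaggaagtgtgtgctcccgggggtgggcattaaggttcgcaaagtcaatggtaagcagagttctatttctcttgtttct

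GAGGAA was present before 4 of the 8 starts, belonging to *Mrc1* (3 matches, 2 of them in the bases shown), *F13a1*, *Cbr2* and *Pf4*, where 23.3% of 32851 promoters of the same length hold it. TGCTGA was present before both starts of *Folr2* and before no other, against 16.1% of all promoters. TGANTCA was present before 1 start of *Folr2*, inside the gene, against 6.75% of all. *Cd163* had no match. A match of letters is a description and not a site of binding, and a window without a match says nothing of the factor.

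The 7 genes were higher on average in *Lztr1* R409C/+ than in WT LVs, by 1.34-fold for *Mrc1* to 2.03-fold for *Folr2* as a ratio of mean CPM. After TMM scaling, the highest value of every gene was in a mutant mouse and the lowest in a WT mouse. None of the 7 passed a false discovery rate of 0.05 in the quasi-likelihood test of edgeR, adjusted over all genes after Benjamini and Hochberg, a threshold that 0.0407% of all genes tested passed, 0.0349% as higher and 0.00581% as lower. DESeq2's Wald test and edgeR's exact test each called 3 of the 7, where they called 0.79% and 0.72% of all genes tested as higher. At an unadjusted p under 0.05, 6 of the 7 were higher (all but *Cd163*), where the same test gave 5.77% of all genes tested as higher and 2.86% as lower. For 5 of the 7 every mutant mouse was above every WT mouse, which held for 8.3% of all genes tested, with 7.23% in the opposite order. The median log2 fold change of the 7 genes was 0.64, beside 0.012 over all genes tested. In whole tissue, more cells of a type and more RNA per cell cannot be told apart.

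**Figure D1:**
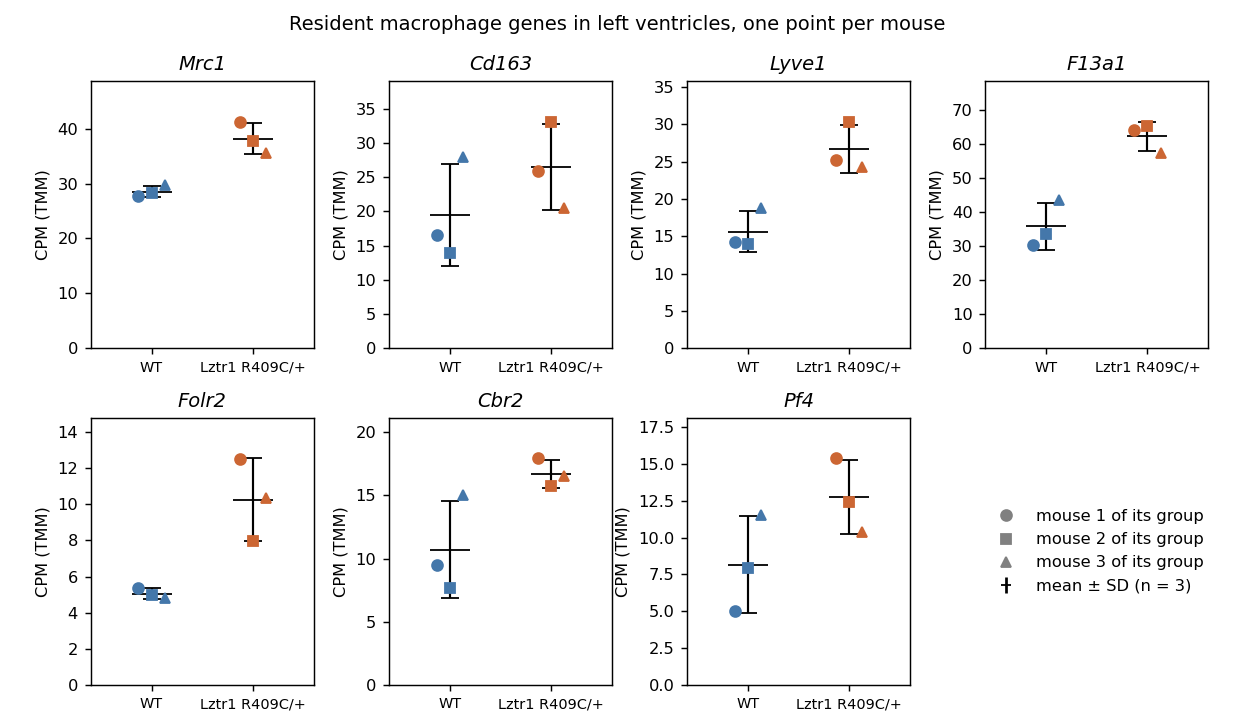
TMM-scaled CPM of the 7 genes (vertical axes, each from 0) in WT and Lztr1 R409C/+ LVs, 1 point per mouse with the marker shape giving the replicate number, and mean ± SD (n = 3) in black. The genotypes do not overlap for *Mrc1*, *Lyve1*, *F13a1*, *Folr2* and *Cbr2*, and WT replicate 3 (blue triangle) is the highest WT mouse for every gene but *Folr2*.

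The endocytic receptors are described first. *Mrc1* (ENSMUSG00000026712.4, chromosome 2 of GRCm39, 14234151 to 14336926) encodes the mannose receptor CD206, which takes up glycoproteins with mannose ends and collagen fragments. It had 27.7, 28.3, and 29.7 CPM in WT replicates 1, 2, and 3 and 41.3, 37.9, and 35.5 CPM in the mutant mice in the same order. The WT mice lay close together, with a coefficient of variation of 3.67%, and all mutant mice were above them. Its log2 fold change, mutant over WT, was 0.42 (standard error 0.15; edgeR, unadjusted p = 0.0134, adjusted p = 0.457), the smallest of the 7.

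*Cd163* (ENSMUSG00000008845.10, chromosome 6, 124281606 to 124307560) encodes the scavenger receptor for complexes of haemoglobin and haptoglobin. It had 16.6, 13.9, and 28.0 CPM in WT replicates 1, 2, and 3 and 25.9, 33.1, and 20.5 CPM in mutant replicates 1, 2, and 3. WT replicate 3 was above mutant replicates 1 and 3, so the genotypes overlapped. Its log2 fold change of 0.44 (standard error 0.26; edgeR, unadjusted p = 0.110, adjusted p = 0.666) was within the spread between mice.

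*Lyve1* (ENSMUSG00000030787.5, chromosome 7, 110448585 to 110462460) encodes a receptor for hyaluronan, a matrix sugar, and is also a marker of lymphatic endothelium. It had 14.2, 13.9, and 18.8 CPM in WT and 25.3, 30.3, and 24.3 CPM in mutant LVs, in replicate order. Every mutant mouse was above every WT mouse. On the log2 scale the difference was 0.77 (standard error 0.18; edgeR, unadjusted p = 9.57e-04, adjusted p = 0.215). *Folr2* (ENSMUSG00000032725.11, chromosome 7, 101489195 to 101506401) encodes folate receptor beta, a lipid-anchored receptor of macrophages. It had 5.39, 4.97, and 4.79 CPM in WT and 12.5, 7.96, and 10.3 CPM in mutant LVs. It was the member with the largest difference on the log2 scale, and the only one for which WT replicate 3 was the lowest WT mouse. This came to a log2 fold change of 1.02 (standard error 0.21; edgeR, unadjusted p = 3.78e-04, adjusted p = 0.215). *Folr2* shares 975 exonic bases with *Gm10602*, a lncRNA on the opposite strand, and the sources do not say that counting used strand. *Gm10602* had 2.82 ± 0.183 CPM in WT and 3.70 ± 0.274 CPM in mutant LVs (SD, n = 3 in each group), so reads of the 2 genes cannot be told apart with certainty.

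The secreted and enzymatic products followed the same direction. *F13a1* (ENSMUSG00000039109.18, chromosome 13, 37051152 to 37234277) encodes the catalytic A subunit of coagulation factor XIII, a transglutaminase that crosslinks fibrin and matrix proteins, and it is made by macrophages and by the precursors of platelets. It had 30.1, 33.5, and 43.5 CPM in WT and 64.1, 65.2, and 57.4 CPM in mutant LVs. The genotypes did not overlap, and its difference of 26.5 CPM between the means was the largest of the 7. On the log2 scale *F13a1* differed by 0.80 (standard error 0.17; edgeR, unadjusted p = 4.88e-04, adjusted p = 0.215). *Cbr2* (ENSMUSG00000025150.11, chromosome 11, 120620312 to 120622940) encodes an NADPH-dependent carbonyl reductase. It had 9.49, 7.64, and 15.0 CPM in WT and 17.9, 15.7, and 16.5 CPM in mutant LVs. WT replicate 3 came within 1 CPM of the lowest mutant mouse without reaching it. Its log2 fold change was 0.64 (standard error 0.23; edgeR, unadjusted p = 0.0164, adjusted p = 0.471). *Pf4* (ENSMUSG00000029373.8, chromosome 5, 90918479 to 90922110) encodes the chemokine CXCL4, known from platelet granules and also made by resident macrophages. It had 4.99, 7.94, and 11.5 CPM in WT and 15.4, 12.4, and 10.4 CPM in mutant LVs. WT replicate 3 was above mutant replicate 3, and the genotypes overlapped. The fitted log2 difference was 0.64 (standard error 0.27; edgeR, unadjusted p = 0.0375, adjusted p = 0.554). By the two-sided exact permutation test on log2 CPM, p was 0.1 for the 5 genes without overlap, the smallest that 3 mice against 3 allow, 0.2 for *Pf4* and 0.3 for *Cd163*.

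The size of these differences depended on single mice. WT replicate 3 was the highest WT mouse for 6 of the 7 genes, at 1.84 times the mean of the other WT mice for *Cd163*, 1.78 times for *Pf4* and 1.75 times for *Cbr2*, but at 1.06 times for *Mrc1* and 0.925 times for *Folr2*. Without it, 7 of the 7 genes had an unadjusted p under 0.05 (5.72% of all genes tested as higher) and did not overlap between the genotypes (13.7% of all genes tested). The log2 fold changes were then 0.80 for *Cd163*, 0.97 for *Pf4*, 0.96 for *Cbr2*, 0.96 for *F13a1*, 0.92 for *Lyve1*, 0.98 for *Folr2* and 0.45 for *Mrc1*. Their median was 0.96, and 0 passed the adjusted threshold in edgeR's quasi-likelihood test. WT replicate 3 is also the library with the lowest mitochondrial share and the highest TMM factor, and the part of these in its values was not tested. Other omissions lowered single genes. The log2 fold change of *Cd163* was 0.24 without WT replicate 2 and 0.24 without mutant replicate 2, and that of *Pf4* was 0.38 without WT replicate 1. Without WT replicate 1, 3 of the 7 genes had an unadjusted p under 0.05 (5.09% of all genes tested as higher).

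The calls also depended on the scaling. With CPM from the total count alone, the 7 genes were still higher on average in mutant LVs, with a median log2 fold change of 0.39 beside -0.14 over all genes tested, a difference of 0.54 between them. On that scale 1 gene, *Folr2*, had an unadjusted p under 0.05 (2.25% of all genes tested as higher), and it alone did not overlap between the genotypes (3.62% of all genes tested). For 4 of the 7 genes WT replicate 3 was then above all mutant mice, with 41.3 CPM of *Mrc1*, 38.9 CPM of *Cd163*, 20.8 CPM of *Cbr2* and 16.0 CPM of *Pf4*. After a correction for gene length, 4 of the 7 had an unadjusted p under 0.05 (4.1% of all genes tested as higher), and the median log2 fold change was 0.48. Other tests at the adjusted threshold called *Lyve1*, *F13a1* and *Folr2*, namely DESeq2's Wald test (0.79% of all genes tested as higher) and edgeR's exact test (0.72% of all genes tested as higher). These tests also called genes of other macrophage lists, given below.

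**Figure D2:**
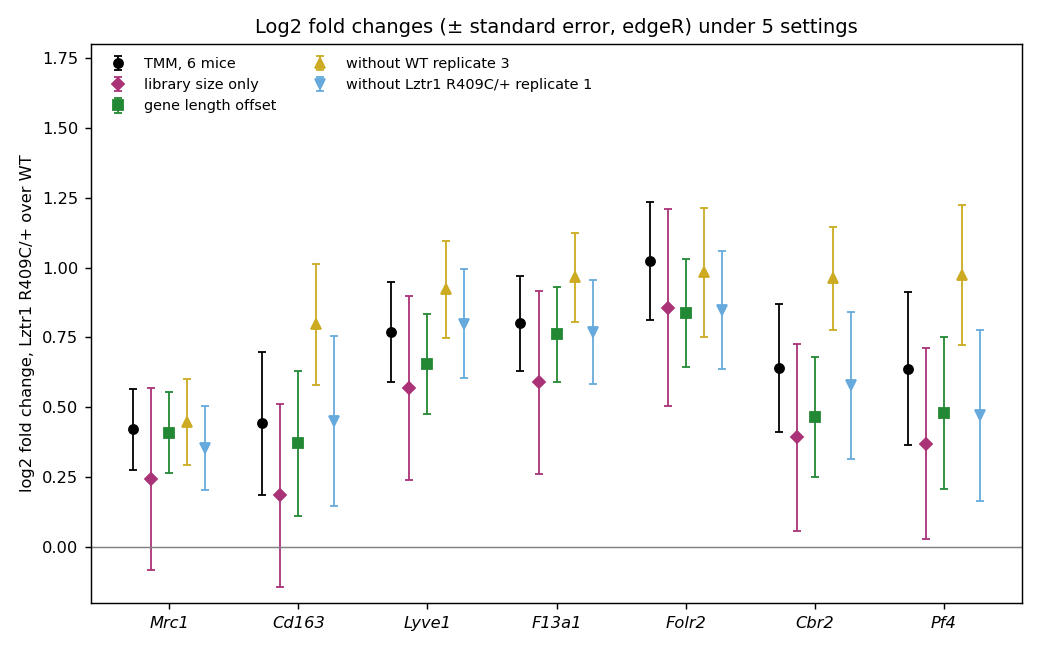
Difference between mutant and WT LVs as log2 fold change (vertical axis) with standard errors from edgeR's quasi-likelihood fit for each of the 7 genes under 5 settings. All points lie above 0, the values by library size alone are lower than the TMM values for every gene, and leaving out WT replicate 3 moves *Cd163* from 0.44 to 0.80.

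Levels of different genes were compared per kilobase of exon. In WT LVs *Cbr2* was at 8.05 ± 2.88 CPM per kilobase (SD, n = 3), followed by *F13a1* at 5.26 ± 1.02, *Lyve1* at 3.75 ± 0.658, *Mrc1* at 3.65 ± 0.134, *Cd163* at 3.51 ± 1.35, *Pf4* at 3.31 ± 1.33 and *Folr2* at 3.17 ± 0.192 CPM per kilobase. Over the WT mice each gene overlapped its neighbours in this order, although within each WT mouse *Cbr2* was above *F13a1* and *F13a1* above the other 5. In mutant LVs *Cbr2* was again first at 12.6 ± 0.834 CPM per kilobase with *F13a1* next at 9.16 ± 0.621, and over the mutant mice these did not overlap each other or the rest, with the same order within each mouse. *Folr2* came next, at 6.44 ± 1.43 CPM per kilobase, level with *Lyve1* at 6.40 ± 0.776, and *Pf4*, *Mrc1* and *Cd163* followed between 5.17 and 4.78 CPM per kilobase. *Csf1r*, which encodes a growth factor receptor of macrophages, was at 5.12 ± 0.294 CPM per kilobase in WT and 7.40 ± 0.456 in mutant LVs.

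To ask whether the 7 genes differed beyond macrophage transcripts in general, each was set against *Csf1r* in the same library, a ratio that no scaling of libraries can change. *Csf1r* had 37.4, 40.0, and 35.7 CPM in WT and 50.9, 55.0, and 57.5 CPM in mutant LVs, differing by 0.53 on the log2 scale (standard error 0.14; edgeR, unadjusted p = 0.00303, adjusted p = 0.284). *Folr2* had 0.144, 0.124, and 0.134 counts per *Csf1r* count in WT and 0.246, 0.145, and 0.180 in mutant LVs. The genotypes did not overlap for this ratio (exact permutation p = 0.1, two-sided, the lowest possible), although mutant replicate 2 and WT replicate 1 were almost level. *F13a1* had 0.955 ± 0.231 counts per *Csf1r* count in WT and 1.15 ± 0.135 in mutant LVs (SD, n = 3 in each group), with overlap (exact permutation p = 0.3, two-sided). *Mrc1* had 0.760 ± 0.0654 in WT and 0.706 ± 0.0981 in mutant LVs, also with overlap (exact permutation p = 0.4, n = 3 in each group). For *Cd163*, *Lyve1*, *Cbr2* and *Pf4* the exact p lay between 0.3 and 1. No adjustment over the 7 ratios was made, since none could pass with 3 mice against 3. No share over all genes tested is given beside these ratios or those with another denominator.

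The result of this ratio depended on the denominator. Against the summed counts of 18 genes of macrophages in general, the log2 difference was -0.48 for *Mrc1*, whose ratio was lower in every mutant mouse than in every WT mouse (0.0780 to 0.0896 against 0.114 to 0.117; exact permutation p = 0.1). The differences of the other 6 genes lay between -0.41 for *Cd163* and 0.10 for *Folr2*, with overlap for each. *Mrc1* and *Cd163* thus had log2 differences below 0 with either denominator, though that of *Cd163* against *Csf1r* was only -0.048, and *Folr2* above 0 with either. *Lyve1*, *F13a1*, *Cbr2* and *Pf4* were above 0 against *Csf1r* (0.25, 0.28, 0.17 and 0.17). Against the 18 genes, which include *Csf1r*, they were below 0 (-0.12, -0.080, -0.20 and -0.19).

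**Figure D3:**
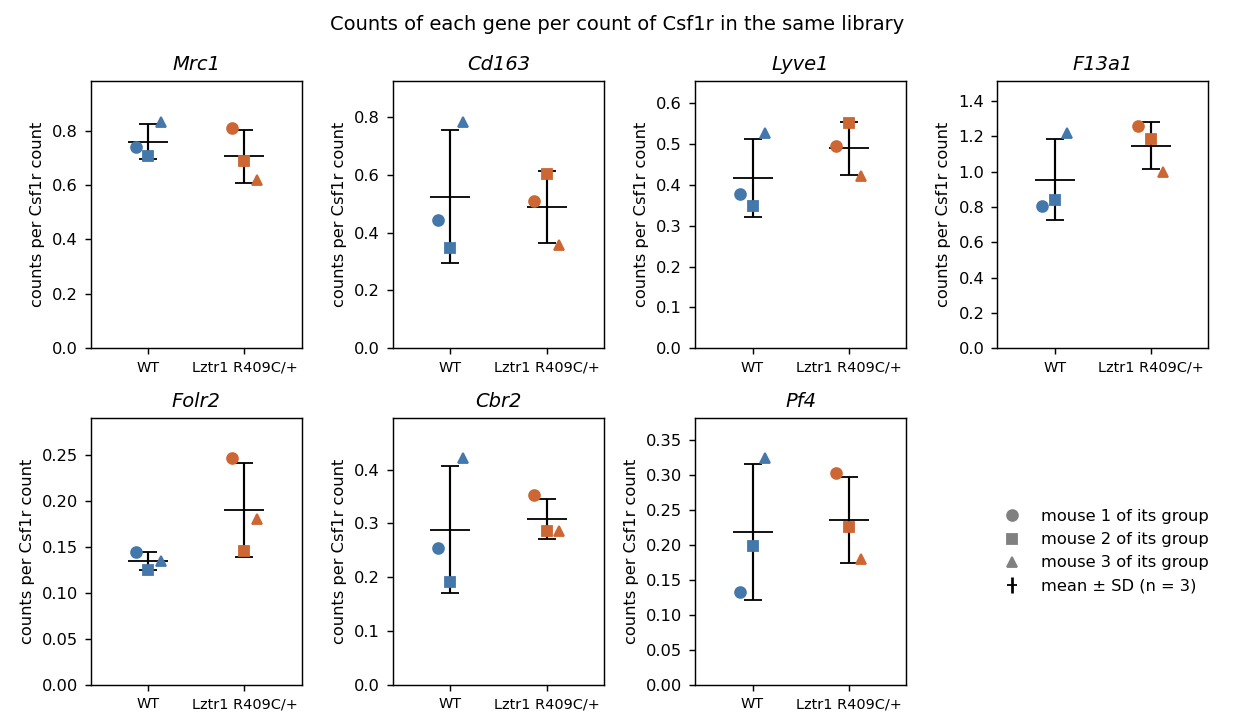
Counts of each of the 7 genes per count of Csf1r in the same library (vertical axes, each from 0) in WT and Lztr1 R409C/+ LVs, 1 point per mouse with mean ± SD (n = 3) in black. Only *Folr2* has all mutant mice above all WT mice, with 0.145 counts per Csf1r count in the lowest mutant and 0.144 in the highest WT mouse.

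The other macrophage genes were taken from lists written with earlier results of these data known, and they are described by counts without a test. Of 24 further genes of resident macrophages, 20 were tested, and 18 were higher and 2 lower. At an unadjusted p under 0.05, 12 were higher and 0 lower (5.77% and 2.86% of all genes tested). In edgeR's quasi-likelihood test 0 passed the adjusted threshold (0.0407% of all genes tested passed). Their median log2 fold change was 0.70. *Igf1*, a growth factor, had 11.7 ± 1.23 CPM in WT and 19.7 ± 2.70 CPM in mutant LVs, both SD, n = 3. *Mgl2*, a lectin for galactose sugars, had 5.93, 4.66, and 6.40 CPM in WT and 9.38, 9.09, and 11.6 CPM in mutant LVs. The adjusted p was 0.215 for *Igf1* and 0.232 for *Mgl2* in edgeR's quasi-likelihood test. Both passed with DESeq2's Wald test (0.0244 and 0.0403) and with edgeR's exact test (0.0289 and 0.0497). Those tests called 0.79% and 0.72% of all genes tested as higher. *Timd4*, a receptor for dying cells that marks the longest-lived resident macrophages and was named after its values were seen, had 1.67 ± 0.155 CPM in WT and 2.82 ± 0.893 CPM in mutant LVs (SD, n = 3 in each group). The genes that were lower were the iron exporter *Slc40a1*, with a log2 fold change of -0.34, and the antibody receptor *Fcgrt*, with -0.0040. *Marco* and *Cd209d* had no count in any library.

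Genes of macrophages in general had the highest median of the macrophage lists. Of the 18 tested, 18 were higher, 17 of them at an unadjusted p under 0.05 (5.77% of all genes tested), with a median log2 fold change of 1.17 that was above that of the 7 genes. The complement chains *C1qc* and *C1qb* passed the adjusted threshold, with log2 fold changes of 1.19 ± 0.15 and 1.15 ± 0.15 (standard errors) and the same adjusted p of 0.0241 in edgeR. Neither passed with library size only (adjusted p = 0.379 and 0.447 in edgeR), with the gene length offset (0.0698 and 0.0508) or with a replicate block (0.173 for both). Without any single mouse neither passed that threshold, while the log2 fold changes ran from 1.13 to 1.24 for *C1qc* and from 1.08 to 1.23 for *C1qb*. The exception at the unadjusted threshold was *Mertk*, a receptor for the uptake of dying cells, with 6.71 ± 1.23 CPM in WT and 8.17 ± 0.643 CPM in mutant LVs (SD, n = 3 in each group). Summed over the list, the level was 237 to 261 CPM in WT and 423 to 530 CPM in mutant LVs, against 108 to 151 and 175 to 203 CPM for the 7 genes.

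Genes of monocyte-derived and MHC class II-bearing macrophages were read next. Of 18 listed, 16 were tested, and 13 were higher and 3 lower on average. At an unadjusted p under 0.05, 9 were higher and 0 lower (5.77% and 2.86% of all genes tested). In edgeR's quasi-likelihood test 0 passed the adjusted threshold, and the median log2 fold change was 0.73. *Ccr2*, the receptor that draws monocytes out of the blood, had 1.09, 1.85, and 2.10 CPM in WT and 8.97, 3.52, and 4.07 CPM in mutant LVs (adjusted p = 0.215 in edgeR's quasi-likelihood test). *H2-Ab1*, an MHC class II chain, had 24.2 ± 6.99 CPM in WT and 42.9 ± 1.05 CPM in mutant LVs (SD, n = 3 each, adjusted p = 0.215 in edgeR's quasi-likelihood test). *Ccr2* and *H2-Ab1* passed with DESeq2's Wald test (adjusted p = 0.0028 and 0.0208) and with edgeR's exact test (0.0096 and 0.0249). Those tests called 0.79% and 0.72% of all genes tested as higher. The 3 that were lower on average overlapped between the genotypes. They were *Spp1*, which encodes osteopontin, with 0.226 CPM in WT and 0.0925 CPM in mutant LVs on average, the monocyte marker *Ly6c2*, with 1.19 and 0.731 CPM, and *Gpnmb*, a glycoprotein of lipid-laden macrophages, with 0.905 and 0.582 CPM. *Chil3* had no count in any library. Of 15 growth and identity factors of macrophages, 14 were tested, 3 were higher and 1 was lower at an unadjusted p under 0.05 (5.77% and 2.86% of all genes tested). *Irf8*, a factor of the monocyte lineage, had 2.83 ± 0.448 and 6.41 ± 2.23 CPM, and *Cebpa* 5.85 ± 1.57 and 8.92 ± 1.53 CPM, in WT and mutant LVs (SD, n = 3 in each group). With DESeq2's Wald test and edgeR's exact test the adjusted p was 0.0150 and 0.0248 for *Irf8*, and 0.373 and 0.393 for *Cebpa*. The gene that was lower was *Bhlhe41*, with a log2 fold change of -0.34 (unadjusted p = 0.0479, adjusted p = 0.573 in edgeR's quasi-likelihood test). Its unadjusted p in that test was 0.129 with library size only, 0.0785 with upper quartile scaling and 0.0741 with the replicate block. It was 0.0642 in the exact test. With DESeq2 size factors (0.0434) and the gene length offset (0.0331) it stayed under 0.05 in the quasi-likelihood test. 

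**Figure D4:**
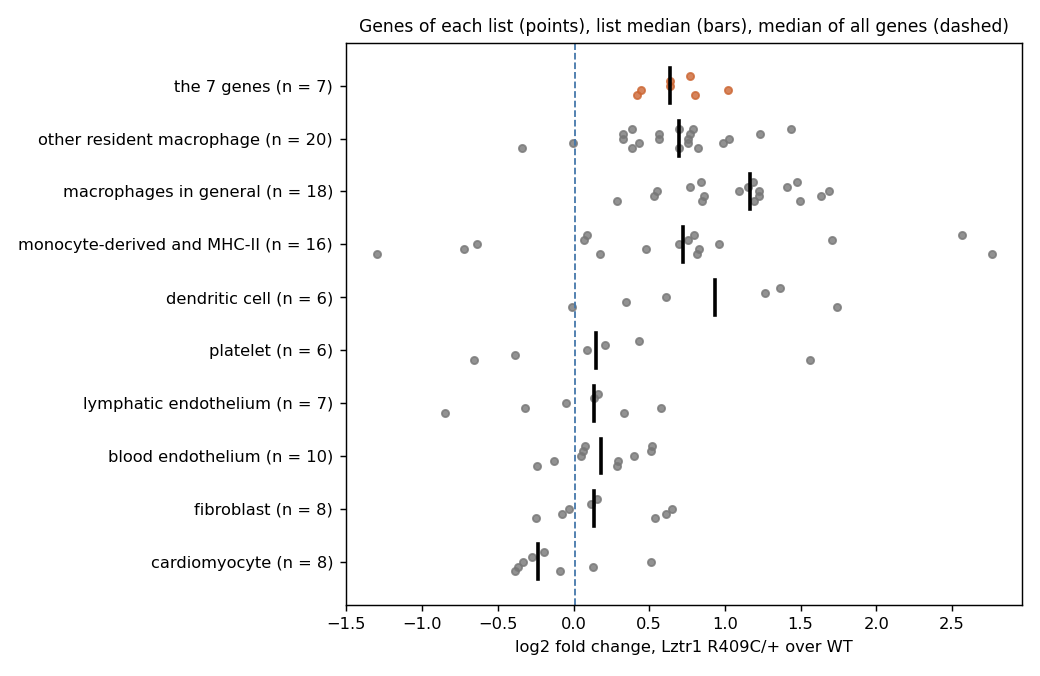
Difference between mutant and WT LVs as log2 fold change (horizontal axis) for the tested genes of 10 lists, with points for genes, black bars for list medians and a dashed line for the median of all genes tested. The medians are 0.64 for the 7 genes, 0.70 for other resident macrophage genes and 1.17 for macrophages in general, 0.73 for monocyte-derived and 0.94 for dendritic cell genes, and lie between -0.23 and 0.18 for the platelet, endothelial, fibroblast and cardiomyocyte lists, in which single genes reach the level of the 7, such as *Lum* at 0.61 and *Fabp4* at 0.52.

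Receptors related to the members and the molecules they bind were then examined. Of 15 endocytic and scavenger receptors, 14 were tested and 3 were higher at an unadjusted p under 0.05 (5.77% of all genes tested), with a median log2 fold change of 0.22. They included *Colec12*, a lectin receptor with 11.6 ± 1.91 CPM in WT and 16.6 ± 1.69 CPM in mutant LVs, and *Scarb1*, a lipoprotein receptor with 16.2 ± 4.62 and 23.7 ± 5.51 CPM (SD, n = 3 in each group). Of 25 ligands and partners, 18 were tested, 4 were higher and 1 was lower at an unadjusted p under 0.05 (5.77% and 2.86% of all genes tested). *Hmox1*, the haem oxygenase that degrades haem taken up through CD163, had 2.83, 3.22, and 2.29 CPM in WT and 4.71, 4.85, and 6.97 CPM in mutant LVs (log2 fold change 0.99, adjusted p = 0.268 in edgeR). *Hpx*, the plasma carrier of haem, was at 0.590, 0.264, and 0.222 CPM in WT and at 0, 0, and 0.0828 CPM in mutant LVs. Another folate receptor, *Folr1*, had 0 counts in 5 mice and 5 in mutant replicate 3, and *F13b*, the carrier subunit of factor XIII, had no count in any library.

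Several members are also expressed by other cells, and the markers of those cells are given beside them. For platelets, which hold *Pf4* and *F13a1*, 14 markers were listed, 6 passed the filter, and their summed level was 4.04 to 6.04 CPM in WT and 4.75 to 4.80 CPM in mutant LVs. *Gfi1b* had no count in any library, and *Gp9* had at most 20. *Ppbp*, the platelet chemokine gene next to *Pf4* that was named after its values were seen, had 0.242 to 0.644 CPM in WT and 0.428 to 0.657 CPM in mutant LVs. The highest of the list was the integrin *Itgb3*, with 2.11 ± 0.430 CPM in WT and 1.61 ± 0.325 CPM in mutant LVs (SD, n = 3 in each group). The smallest p-values were those of *Clec1b* (0.0506, log2 fold change 1.56) and *Gp1ba* (0.110, log2 fold change -0.66), unadjusted, in edgeR. *Itgb3* and *Gp1ba*, the 2 highest of the tested platelet genes, were lower on average in mutant LVs, and the other 4 were higher. For lymphatic endothelium, which expresses *Lyve1*, all 7 markers were tested, and their sum was 97.1 to 141 CPM in WT and 99.8 to 117 CPM in mutant LVs. Its highest gene, the transcription factor *Prox1*, had 87.9, 102, and 63.7 CPM in WT and 71.5, 62.4, and 69.4 CPM in mutant LVs, and *Reln* was lower, at -0.85 on the log2 scale (unadjusted p = 0.0141, adjusted p = 0.463 in edgeR). The platelet gene *Clec1b* was higher in every mutant than in every WT mouse, at 0.378 to 0.650 against 0.0621 to 0.348 CPM (8.3% of all genes tested). *Prox1* made up most of the lymphatic sum, which therefore mostly describes that gene. On average 4 of the 7 lymphatic genes were higher in mutant LVs, each with overlap, and 3 were lower. The 4, as WT against mutant means, were *Sema3d* (1.92 against 2.87 CPM), *Ccl21a* (6.73 against 8.47), *Flt4* (15.0 against 16.4) and *Pdpn* (2.65 against 2.96). The 3 were *Prox1*, *Reln* and *Mmrn1* (5.97 against 5.78 CPM). Of these, all but *Prox1* and *Reln* were named after their values were seen. The part of platelets and of lymphatic endothelium in the values of *Pf4*, *F13a1* and *Lyve1* was not tested.

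Markers of other cells were read in the same way. Erythroid genes summed to 579, 748, and 1479 CPM in WT and 2626, 1043, and 1769 CPM in mutant LVs, with *Hba-a1* at a log2 fold change of 1.02 (adjusted p = 0.372 in edgeR), and WT replicate 3 was again the highest WT mouse. Of 7 dendritic cell genes, 6 were tested and 2 were higher at an unadjusted p under 0.05 (5.77% of all genes tested), *Itgax* and *Clec9a*. On average 5 of the 6 were higher and 1 lower. The lower gene was *Zbtb46*, the highest of the list and named after its values were seen. It had 17.0 ± 1.31 CPM in WT and 16.8 ± 0.647 CPM in mutant LVs (SD, n = 3 in each group). Lymphocyte genes summed to at most 1.65 CPM in WT and to 2.83 to 3.93 CPM in mutant LVs, and neutrophil genes to 0.528 to 1.04 and 1.15 to 1.59 CPM. Median log2 fold changes were 1.44 over 6 tested lymphocyte genes, 0.99 over 6 erythroid genes, 0.95 over 2 neutrophil genes and 0.94 over 6 dendritic cell genes, each above the 0.64 of the 7 genes. The 2 neutrophil genes differed, with *S100a8* at 1.91 and *S100a9* at -0.0058, so their median describes neither. Medians of further lists follow. They were 0.18 over 10 blood endothelial genes, 0.14 over 8 fibroblast genes, -0.23 over 8 cardiomyocyte genes, 0.29 over 2 tested atrial genes and 1.58 over 3 tested mesothelial genes. At an unadjusted p under 0.05 (5.77% of all genes tested as higher), 3 of the 8 fibroblast genes were higher, *Lum*, *Dpt* and *Tcf21*, with log2 fold changes of 0.61, 0.65 and 0.54, and 2 of the 10 blood endothelial genes, *Fabp4* and *Emcn*, with 0.52 and 0.40. These 5, named after their values were seen, were higher in every mutant than in every WT mouse (8.3% of all genes tested). On average 3 of the 8 fibroblast genes were lower, *Col1a1*, *Col1a2* and *Col3a1* (-0.25, -0.073 and -0.030). So were 2 of the 10 blood endothelial genes, *Kdr* and *Tie1* (-0.24 and -0.13), also named after their values were seen. At the unadjusted threshold 0 of either list were lower. Counts of genes higher at that threshold were 3 of 6 for erythroid, 1 of 6 for lymphocyte, 1 of 2 for neutrophil, 2 of 3 for mesothelial and 0 of 8 for cardiomyocyte genes. The part of these cells, blood included, in the values of the 7 genes was not tested. The lung genes *Scgb1a1*, *Sftpc* and *Sftpa1* had no count in any library.

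Beside the 7 genes themselves, those whose pattern over the 6 mice was nearest to the mean of the 7, by the root mean square difference of log2 CPM centred on each gene's mean, were *Arhgap9*, *Gm31013*, *Gm43042*, *Clec9a* and *Shox2*, at 0.041 to 0.083 on the log2 scale. Among the 7 themselves this distance was smallest for *F13a1* (0.079) and largest for *Folr2* (0.31). *Arhgap9*, which encodes a GTPase activator of blood cells, had 3.19, 3.20, and 4.71 CPM in WT and 6.66, 6.21, and 5.73 CPM in mutant LVs, and *Clec9a*, a dendritic cell receptor for dead cells, had 2.39, 2.33, and 3.10 CPM and 4.60, 3.93, and 3.44 CPM. As in the mean of the 7, WT replicate 3 was above the other WT mice and mutant replicate 1 above the other mutant mice. This shared order follows from choosing the genes by their nearness to that mean. *Gm43042* and *Shox2* were low, at most 0.199 and 0.505 CPM in any mouse.

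The members also differed in how the mutant mice were ordered. *Mrc1*, *Folr2*, *Cbr2* and *Pf4* were highest in mutant replicate 1, and *Cd163*, *Lyve1* and *F13a1* in mutant replicate 2. Between the WT mice the coefficient of variation ran from 3.67% for *Mrc1* to 40.2% for *Pf4*, and between the mutant mice from 6.63% for *Cbr2* to 23.8% for *Cd163*. As shares of the summed CPM of the 7, *F13a1* made up 29.0% ± 1.35 in WT and 32.2% ± 0.569 in mutant LVs, and *Mrc1* 23.6% ± 3.44 and 19.8% ± 0.964 (SD, n = 3 in each group). The shares of *Mrc1* overlapped between the genotypes because WT replicate 3 was at 19.6%, within the range of the mutant mice.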

How the data were processed

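RNA from the perfused LVs of 3 WT and 3 *Lztr1* R409C/+ mice was sequenced by the authors, who used Trim Galore for trimming, HISAT2 with GRCm39 for alignment and StringTie for gene assignment, and left rRNA out. Versions and the annotation release are not given in the sources used here. What they deposited is a table of counts in whole numbers, and how these were taken from StringTie is not given in the sources used here, so that they may be derived from coverage and counting errors are approximate. The authors also deposited an edgeR comparison with log2 fold changes, log2 average CPM and p-values, of which only gene names were used. Names absent there, positions and exon lengths came from GENCODE vM39 on GRCm39 (56236 of 56923 identifiers matched), and promoters from RefSeq.

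The fit used edgeR 4.0.16 under R 4.3.3 (filterByExpr, TMM, robust quasi-likelihood test, two-sided, Benjamini-Hochberg adjustment over 17212 genes, threshold 0.05). Values given as edgeR come from this quasi-likelihood test unless the exact test is named. The step was tested on simulated data. The 7 genes, the lists and the tests were chosen with earlier results of these data known. Named were the 7 genes, *Csf1r*, *Lztr1*, the 5 genes nearest to the mean pattern of the 7, the called genes and some of the 2 with the smallest p of each list, the highest genes of the platelet and lymphatic lists, and a few that the text says were chosen after their values were seen or that account for a small count. Alternatives were DESeq2 1.42.0 size factors, library size, upper quartile, DESeq2's Wald test, edgeR's exact test, other filters (none, or at least 10 counts in every mouse), no mitochondrial genes, a replicate block, a gene length offset (loess, span 0.5), omission of each mouse, and omission of both WT replicate 3 and mutant replicate 1, which was chosen after seeing the data. Log2 CPM used a prior count of 2.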

Additional observations from a re-analysis of the deposited data

How the results depend on the processing

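The log2 fold changes of the 7 genes were above 0 in each of 17 alternatives (119 values). DESeq2's Wald test moved *Lyve1* (0.76), *F13a1* (0.79) and *Folr2* (1.01) past the adjusted threshold, as did edgeR's exact test (0.77, 0.80 and 1.02), so that 3 members were called by each, and these tests called 136 and 124 higher and 14 and 13 lower genes in all, against 6 and 1. Of the named list genes, both tests called *C1qc*, *C1qb*, *Igf1*, *Mgl2*, *Ccr2*, *H2-Ab1* and *Irf8*. The Wald test alone called *Hmox1* (adjusted p = 0.0421) and *Hba-a1* (0.0391), and the exact test alone *Itgax* (0.0349). Library size only gave 15 higher and 6 lower genes, 1 member at an unadjusted p under 0.05 (2.25% of all genes tested as higher), 1 member without overlap, a median member log2 fold change of 0.39, and -0.014 for *Lztr1*, whose direction turned. List medians on that scale were 0.57 for other resident, 1.02 for general and 0.49 for monocyte-derived macrophage genes, 0.061 for scavenger receptors, -0.12 for platelet, -0.026 for fibroblast, -0.39 for cardiomyocyte and 0.68 for dendritic cell genes. With library size only, *Igf1*, *Mgl2*, *Timd4*, *H2-Ab1*, *Colec12*, *Scarb1*, *Cebpa* and *Clec9a* had an unadjusted p over 0.05 (0.0627 to 0.314, quasi-likelihood test). *Ccr2*, *Irf8*, *Hmox1*, *Itgax* and *Hba-a1* stayed under 0.05 (2.93e-04 to 0.0226). Counts per list at that threshold are not given for this scaling. Without a filter 19 genes were higher, with at least 10 counts in every mouse 0 were lower, and with the gene length offset 1 was higher.

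The values gave no sign that replicate numbers pair the mice, although 3 mice per group cannot exclude it. Deviations of same-numbered mice correlated at -0.0013, 0.022 and -0.057, and 1 of 6 mice correlated best with its own number. With the replicate block 0 genes were higher, 5 members had an unadjusted p under 0.05 (5.25% of all genes tested as higher) and the median was 0.70. Omitting each mouse in turn gave 1 to 3 higher genes, 1 to 2 lower genes, 3 to 7 members at an unadjusted p under 0.05 (4.80% to 5.72% of all genes tested as higher) and medians of 0.56 to 0.96, the highest without WT replicate 3. Omitting both WT replicate 3 and mutant replicate 1 left 0 higher genes. *C1qc* and *C1qb* did not pass in any omission, nor with library size (1.04 and 1.01), the block (1.19 and 1.15) or the length offset (1.04 and 1.10), where their log2 fold changes were as given. *Fcgrt* turned to 0.039 (upper quartile), 0.0032 (at least 10 counts), 0.024 (block), 0.39 (both mice omitted) and ran from -0.20 to 0.29 over omissions of 1 mouse. Against the general macrophage list in place of *Csf1r*, the log2 differences of *Mrc1*, *Lyve1*, *F13a1* and *Folr2* were -0.48, -0.12, -0.080 and 0.10. The cause of these shifts was not tested. With 3 mice per group their number limits the precision, and the part of depth in the spread was not tested.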
